A study of Mus musculus with 20 samples.

Results

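The genes described here are 31 that mark microglia or belong to their phagocytic and complement machinery, chosen by name from the 47729 genes of the count files. They comprise 9 genes of microglial identity, 3 transcription factors, 6 genes of the complement system and its receptor, 4 genes of the DAP12 and Fc receptor signaling complexes, 5 genes of phagocytosis and the lysosome, and 4 genes shared with other leukocytes. All 31 had enough reads to be tested in every comparison.

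The reads came from mRNA of the cortex and hippocampus of 5 WT and 5 Ube3aOE mice, all C57Bl/6J pups at P7, with females and males in both genotypes. Each tissue of each mouse gave 1 library, so that 20 libraries come from 10 mice (WT mice 1 to 5, Ube3aOE mice 6 to 10). Ube3aOE mice carry extra copies of Ube3a, which encodes a ubiquitin ligase, on a floxed bacterial artificial chromosome that includes flanking sequence. In the study the sequenced mice were the 2-copy animals, Ube3a+2, and its characterization of the model centred on founder line E, in which the transgene lies in chromosome 3. The labels give no Cre and no other allele or agent in any group. WT pups carried no transgene.

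Microglia are the resident macrophages of the brain. They enter the embryo's brain from the yolk sac, depend on the receptor CSF1R for survival, and in the first postnatal weeks spread, divide, clear dying cells and trim synapses. In the classical complement pathway, C1q binds a surface such as a weak synapse and leads to the deposit of C3 fragments, which microglia recognize through complement receptor 3, a pair of integrin chains encoded by Itgam and Itgb2. Trem2 and several Fc receptors carry no signaling tail of their own and signal through the adaptors encoded by Tyrobp (DAP12) and Fcer1g.

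The libraries held between 14191093 and 16752326 reads counted on genes, which were 69.7% to 81.2% of the reads. The cortex library of WT mouse 2 stood apart, with the lowest total, the lowest share on genes and the highest share of unaligned reads (8.66%), while the hippocampus library of that mouse had 80.8% on genes. Ube3a followed the labels: it ranged from 54.4 to 76.8 CPM (counts per 1000000 counted reads, TMM-scaled) in the 10 WT libraries and from 130 to 195 CPM in the 10 Ube3aOE libraries. The tissues followed their labels as well. Prox1, a gene of dentate granule neurons, ranged from 67.6 to 184 CPM in hippocampus and from 10.5 to 25.1 CPM in cortex, and Rorb, a gene of cortical layer 4, from 32.0 to 76.3 CPM in cortex and from 6.73 to 19.1 CPM in hippocampus. In the hippocampus libraries of Ube3aOE mice 7 and 9, the summed level of 7 choroid plexus genes was 1970 and 352 CPM, against 9.93 to 33.9 CPM in the other hippocampus libraries.

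Most members were expressed at a low level, and 13 of the 31 had under 100 counts per library on average. Levels were compared between genes per length, as CPM per kilobase of the longest coding transcript. On that scale Lgmn, the lysosomal protease legumain, was highest in cortex (49.3 ± 3.45, SD, n = 10) and hippocampus (54.7 ± 2.05). The 3 chains of C1q followed in both tissues, with C1qb at 18.6 ± 2.19, C1qc at 17.3 ± 1.86 and C1qa at 15.3 ± 2.54 CPM per kilobase in cortex. These chains and Tyrobp, at 14.9 ± 2.59, lay within their spread of each other. The lowest levels per kilobase in cortex were those of C3 (0.161 ± 0.0539) and Itgam (0.162 ± 0.0678). The level of Itgam is uncertain, since 68.7% of its exon bases are shared with a second annotated gene on the same strand, also named Itgam in the files and holding 0 counts, and reads over shared bases were not counted on either.

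The genes for the C1q chains lie side by side within 18.7 kb of chromosome 4 (GRCm38, 136880129 to 136898803), and P2ry12 and P2ry13 within 55.0 kb of chromosome 3 (59207892 to 59262871). Windows of 250 bases before to 50 bases after the start of transcription were given for 24 of the 31 members (RefSeq, GRCm38.p6). The transcription factor PU.1, encoded by the member Spi1, is known to bind purine-rich sites in macrophage genes, of which GAGGAAGT is a core form. These 8 letters, on either strand, were found in the windows of 3 members, Ctss, Cd53 and C1qc, which is 12.5% of the members with a window against 3.69% of all genes with one. The shorter form GAGGAAG, which every match of the longer form also holds, was found for 9 of the 24 members (Ctss, Cd53, C1qc, Fcgr3, Fcrls, Itgam, Laptm5, P2ry13 and Trem2) and for 15.4% of all genes. The composite ETS-IRF element, searched in its core form on either strand, was found for 1 member, Cd68, and for 3.16% of all genes. The windows of the 3 genes with the longer form are shown as stretches of 100 bases because each of these genes was also called higher in hippocampus in the comparison of the tissues. Each reads 5′ to 3′ along the gene, with GAGGAAGT in capitals as its complement on the opposite strand. The stretches lie at chr3:95526700-95526799 (plus strand, Ctss), chr3:106790136-106790235 (minus strand, Cd53) and chr4:136893056-136893155 (minus strand, C1qc).
Ctss: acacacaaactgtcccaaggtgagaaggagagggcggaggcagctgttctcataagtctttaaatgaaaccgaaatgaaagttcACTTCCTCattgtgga
Cd53: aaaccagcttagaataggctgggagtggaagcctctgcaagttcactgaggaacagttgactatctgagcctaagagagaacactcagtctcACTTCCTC
C1qc: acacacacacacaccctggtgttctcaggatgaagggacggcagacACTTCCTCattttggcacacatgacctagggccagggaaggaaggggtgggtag

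In Ctss the capitals span the annotated start of transcription, and in Cd53 they begin 6 bases after it. In C1qc they lie at positions -195 to -188 from the RefSeq start, but 37 bases before the start in GENCODE M21, which is placed further upstream. A match of letters is a description of the window and was not tested as a binding site.

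Hippocampus and cortex were compared in all 20 libraries. Microglia and complement genes were higher in hippocampus: 18 of 31 passed the test, all of them higher, by 1.11-fold (Lgmn) to 1.80-fold (Itgam). Over all 15661 genes tested, 25.3% were called higher in hippocampus and 25.6% lower, so the members' share of 58.1% called higher stood above the background and none was called lower. The log2 difference was above 0 for 30 of the 31 members, with a median of 0.34, against 49.2% of all genes and a median of -0.01. Higher levels in hippocampus in 10 of 10 mice were seen for 9 members (14.8% of all genes) and in at least 9 mice for 16 members (23.1% of all genes). In bulk tissue, more microglia, more RNA of these genes per microglial cell, RNA from other cells and a smaller share of other RNA cannot be told apart.

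The summed level of the 31 members was higher in the hippocampus than in the cortex of each of the 10 mice, by 1.04-fold in mouse 8 to 1.39-fold in mouse 4 (median 1.26). Without Lgmn, which made up 20.9% to 29.2% of the sum, the ratio ranged from 1.05 to 1.51 (median 1.31).

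**Figure D1:**
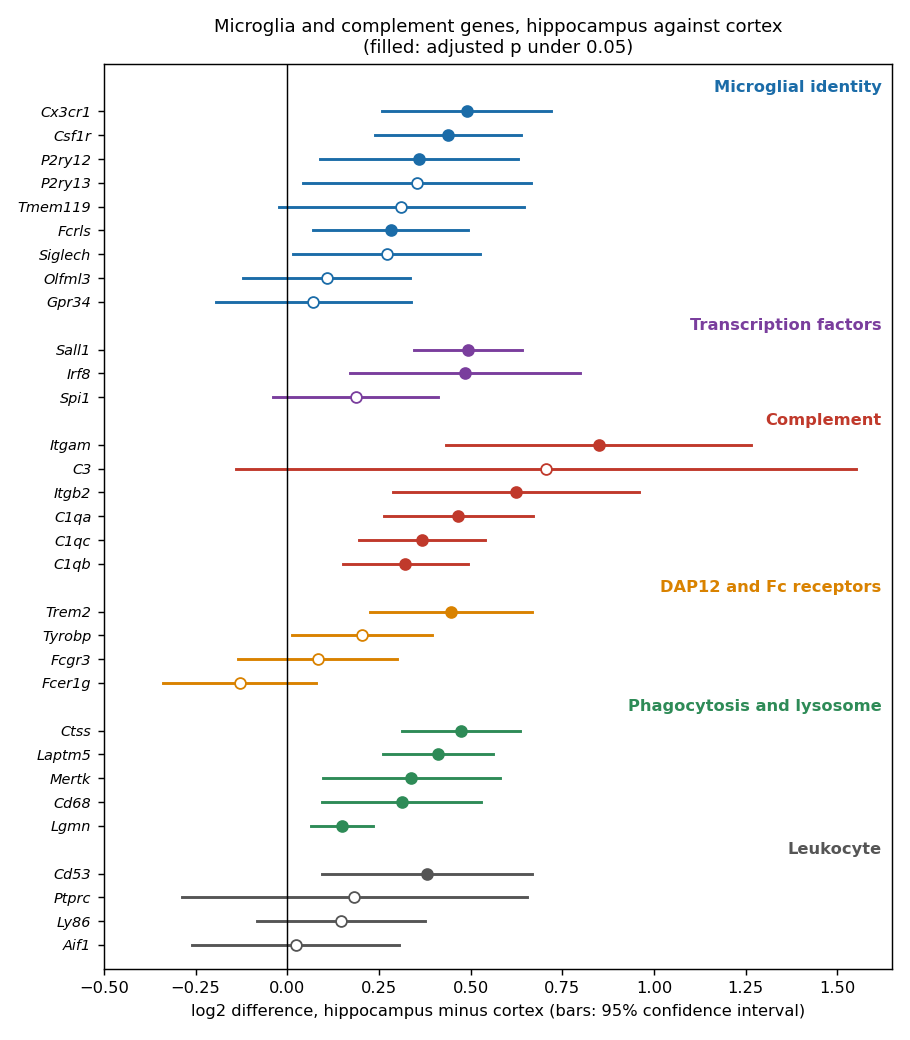
The x axis gives the log2 difference between hippocampus and cortex for each of the 31 members, ordered by role, with bars for the 95% confidence interval (edgeR, 10 libraries per tissue). Filled points passed an adjusted p of 0.05, and 30 of 31 points lie to the right of 0, with Fcer1g to the left.

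Among the genes of microglial identity, 4 of 9 were called (44.4%, against 25.3% of all genes called higher) and all 9 lay above 0. Cx3cr1, the receptor through which microglia sense neuronal fractalkine, ranged from 18.5 to 33.1 CPM in cortex (median 24.6) and from 23.4 to 42.8 CPM in hippocampus (median 36.6). It was higher in hippocampus in 10 of 10 mice, although the lowest hippocampus values, those of WT mouse 2 and Ube3aOE mouse 7, lay within the range of cortex (log2 difference 0.49 ± 0.11 SE, edgeR adjusted p = 0.0010). Csf1r, the receptor for the survival factors CSF1 and IL-34, ranged from 24.3 to 40.5 CPM in cortex (median 34.8) and from 30.9 to 51.2 CPM in hippocampus (median 45.9). It too was higher in hippocampus in every mouse (0.44 ± 0.10, adjusted p = 0.000715), and 15.1% of its exon bases overlap a gene on the opposite strand, Hmgxb3. P2ry12, the ADP receptor that guides microglial processes to injury, rose by 0.36 ± 0.13 (adjusted p = 0.0258), from a median of 11.4 to 14.6 CPM, in 9 of 10 mice. Fcrls, an Fc receptor-like gene of microglia, rose by 0.28 ± 0.10 (adjusted p = 0.0252), from a median of 18.6 to 22.4 CPM. Both of these calls were lost in some fits with 1 mouse left out, that of P2ry12 without mouse 1, 4, 6 or 8 (adjusted p up to 0.0644) and that of Fcrls without mouse 3, 4, 6, 7 or 8 (up to 0.0622).

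The other genes of identity did not pass. P2ry13, a further ADP receptor, differed by 0.35 (adjusted p = 0.0543), Tmem119, a surface marker that sets microglia apart from other macrophages, by 0.31 (0.112), and Siglech, a sialic acid-binding lectin, by 0.27 (0.0706). All 3 were called when the mouse was fitted as a block, that is, when the hippocampus and cortex of 1 animal were compared with each other (adjusted p = 0.0127, 0.0356 and 0.0185), so that the number called rose from 18 to 21 and held all 18 of the unblocked fit. With the block, 27.4% of all genes were called higher. Olfml3 and Gpr34 differed by 0.11 and 0.07, with 95% intervals that lay between -0.5 and 0.5.

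Of the transcription factors, Sall1 and Irf8 were called and Spi1 was not (66.7% called, against 25.3% of all genes called higher). Sall1, which keeps microglia in their resting identity and is also expressed by neural progenitors, ranged from 15.6 to 21.6 CPM in cortex (median 17.8) and from 18.4 to 28.3 CPM in hippocampus (median 26.4). It was higher in hippocampus in all 10 mice, with 1 hippocampus library, that of WT mouse 2, inside the range of cortex (0.49 ± 0.07, adjusted p = 6.51e-06). Irf8, a regulator of the myeloid lineage, rose from a median of 2.26 to 3.15 CPM (0.48 ± 0.15, adjusted p = 0.0105). Spi1, which encodes PU.1, differed by 0.19 ± 0.11 (adjusted p = 0.159), from a median of 3.27 to 3.45 CPM.

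The complement genes were called in 5 of 6 cases (83.3%, against 25.3% of all genes called higher). C1qa ranged from 11.1 to 19.0 CPM in cortex (median 16.3) and from 17.2 to 27.8 CPM in hippocampus (median 21.9), higher in hippocampus in 10 of 10 mice (0.47 ± 0.10, adjusted p = 0.000463). C1qc rose by 0.37 ± 0.08 (adjusted p = 0.000863), from a median of 20.4 to 26.9 CPM, and C1qb by 0.32 ± 0.08 (adjusted p = 0.00249), from 20.0 to 24.6 CPM, each in 9 of 10 mice. The 3 chains, which assemble in equal numbers into the C1q protein, kept near-equal shares of their summed level per kilobase: in WT cortex C1qa made up 30.4% ± 3.30 (SD, n = 5), C1qb 35.8% ± 1.85 and C1qc 33.8% ± 2.45, and in WT hippocampus 32.0% ± 0.914, 35.8% ± 1.44 and 32.2% ± 1.91. In Ube3aOE mice the shares were 29.2% ± 2.40, 36.8% ± 1.27 and 34.0% ± 1.23 in cortex, and 31.4% ± 1.53, 33.8% ± 1.59 and 34.7% ± 1.13 in hippocampus.

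Both chains of complement receptor 3 were called, at low levels. Itgam ranged from 0.323 to 1.34 CPM in cortex (5 to 21 counts, median 0.690 CPM) and from 0.861 to 1.71 CPM in hippocampus (14 to 29 counts, median 1.35), higher in hippocampus in 10 of 10 mice (0.85 ± 0.20, adjusted p = 0.00132). Itgb2, its integrin partner, ranged from 0.598 to 1.56 CPM in cortex (median 1.11) and from 1.17 to 2.17 CPM in hippocampus (median 1.70), likewise in every mouse (0.62 ± 0.16, adjusted p = 0.00286). C3, the central component cleaved by all complement pathways, was the exception. It lay between 0.445 and 1.34 CPM in cortex and between 0.308 and 5.15 CPM in hippocampus, with the high values in WT mouse 4 (2.59) and Ube3aOE mouse 10 (5.15), and was higher in hippocampus in 4 of 10 mice (0.71 ± 0.40, adjusted p = 0.156).

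Of the genes of DAP12 and Fc receptor signaling 25.0% were called, near the 25.3% of all genes called higher. Trem2 alone passed. This lipid-sensing receptor of phagocytic microglia ranged from 3.81 to 6.13 CPM in cortex (median 4.94) and from 4.80 to 9.31 CPM in hippocampus (median 6.39; 0.45 ± 0.11, adjusted p = 0.00140), in 8 of 10 mice. Tyrobp, its adaptor, differed by 0.20 ± 0.09 (adjusted p = 0.0687), with medians of 8.65 and 9.71 CPM. Fcgr3, a low-affinity IgG receptor, differed by 0.08 ± 0.10 (adjusted p = 0.532). Fcer1g, the common gamma chain of Fc receptors, was the member with a lower level in hippocampus, from 5.23 to 7.58 CPM in cortex (median 6.22) and from 4.19 to 6.87 CPM in hippocampus (median 5.83). The tissues overlapped, and the difference did not pass (-0.13 ± 0.10, adjusted p = 0.296, 95% interval -0.34 to 0.08).

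The phagocytosis and lysosome genes were called in 5 of 5 cases, against 25.3% of all genes called higher. Ctss, the protease cathepsin S, ranged from 9.72 to 14.0 CPM in cortex (median 13.1) and from 14.2 to 20.7 CPM in hippocampus (median 16.9; 0.47 ± 0.08, adjusted p = 2.93e-05). It was the 1 member whose tissues did not overlap, which held for 5.52% of all genes in this direction. Laptm5, a lysosomal membrane protein of blood-lineage cells, rose by 0.41 ± 0.07 (adjusted p = 6.52e-05), from a median of 22.7 to 30.3 CPM, in every mouse. Mertk, the receptor for phosphatidylserine-bridging ligands, which astrocytes also express, rose by 0.34 ± 0.12 (adjusted p = 0.0194), and Cd68, a glycoprotein of phagosome membranes, by 0.31 ± 0.10 (adjusted p = 0.0165). Lgmn, the gene with the most counts, had the smallest called difference, from 86.7 to 108 CPM in cortex (median 98.8) and from 100 to 115 CPM in hippocampus (median 109; 0.15 ± 0.04, adjusted p = 0.00384). With the mouse as a block and the trend on transcript length and GC removed, Lgmn (0.09, adjusted p = 0.0764) and Mertk (0.24, adjusted p = 0.0739) were no longer called, which left 3 of 5. With 1 mouse left out, Mertk was lost without mouse 4 or 8 (adjusted p up to 0.0768) and Cd68 without mouse 4 or 6 (up to 0.0636).

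Of the leukocyte genes 25.0% were called, near the 25.3% of all genes called higher. Cd53, a tetraspanin, passed (0.38 ± 0.14, adjusted p = 0.0256, from a median of 2.99 to 3.82 CPM), but not without mouse 4 or mouse 9 (adjusted p up to 0.0902). Ptprc, which encodes the leukocyte antigen CD45, differed by 0.18 ± 0.23 (adjusted p = 0.526), Ly86, which encodes the RP105-binding protein MD-1, by 0.15 ± 0.11 (0.285), and Aif1, which encodes the widely used marker IBA1, by 0.02 ± 0.14 (0.905). Of the 13 members that did not pass, 8 had 95% intervals within -0.5 to 0.5 on the log2 scale, as 61.7% of all genes did, and 5 had intervals that reached 0.5 or more (P2ry13, Tmem119, Siglech, C3 and Ptprc).

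**Figure D2:**
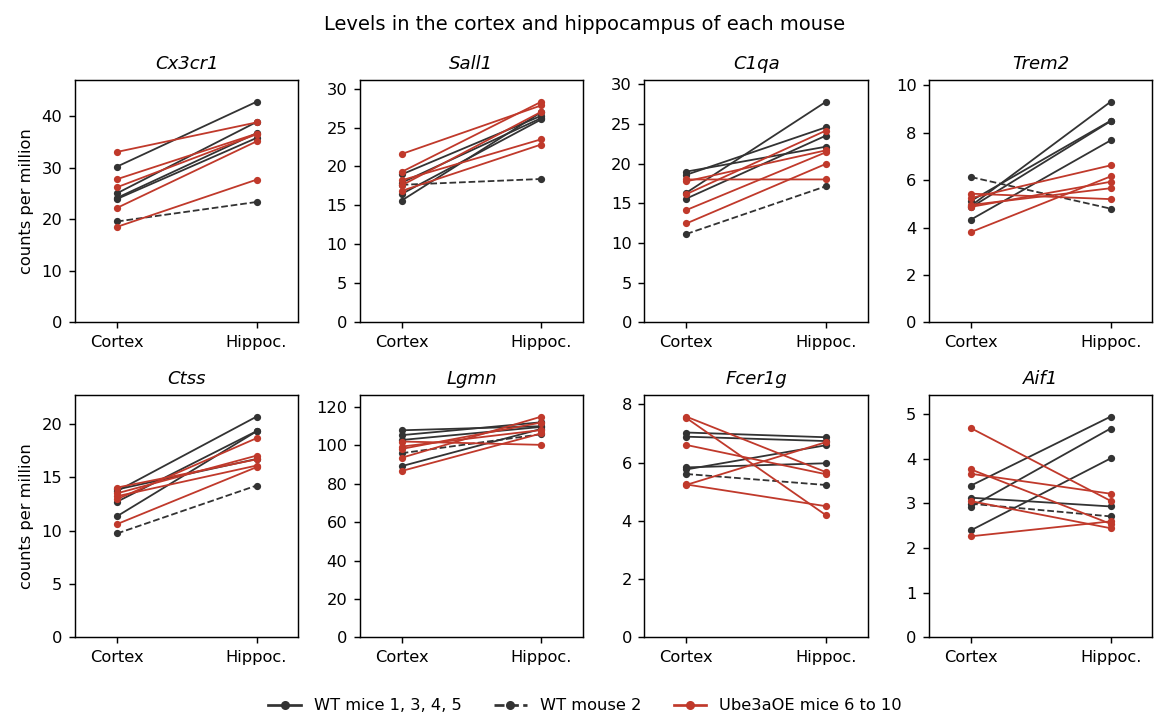
Each panel gives the level of 1 gene in CPM (y axis, from 0) in the cortex and hippocampus of each mouse, joined by a line, with WT in black, WT mouse 2 dashed and Ube3aOE in red. The lines of Cx3cr1, Sall1 and Ctss rise in 10 of 10 mice and those of Fcer1g in 3, while Aif1 rises in 4.

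The tissues also differed in genes of other cell types, measured in the same fit (25.3% of all genes called higher, 25.6% lower). Of 5 neuron genes 4 were lower in hippocampus (median log2 difference -0.42), for example Rbfox3, a splicing factor of mature neurons (-0.52), Stmn2, a tubulin-binding protein of growing axons (-0.46), and Tubb3, neuronal tubulin (-0.42). Astrocyte genes were higher in 5 of 6 cases (median 0.44), led by the glutamate transporter Slc1a3 (0.81), the gap junction gene Gja1 (0.56) and the water channel Aqp4 (0.47), and so were 5 of 5 cell division genes (median 0.59), with Ccnb1 at 0.98, Top2a at 0.97 and Mki67 at 0.59. Of 7 oligodendrocyte lineage genes 3 were higher (median 0.26), Olig2 (0.48), Pdgfra (0.27) and Olig1 (0.26), while Mag, at 0.30, did not pass. The part of these changes in the members' difference was not tested.

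Cells from blood and vessels gave other values. Their counts stand beside 25.3% of all genes called higher and 25.6% called lower. None of the 5 erythroid genes was called (median -0.17, among them Hbb-bs at -0.24, Hbb-bt at -0.19 and Hba-a2 at -0.17). Of the 5 endothelial genes 1 was lower (Cdh5, -0.30, beside Flt1 at -0.12 and Pecam1 at -0.03), as was 1 of 5 meningeal fibroblast genes (Lum, -0.55, beside Slc6a13 at -0.86 and Col1a2 at -0.25, which did not pass). The 11 monocyte and neutrophil genes summed to 0.527 to 4.31 CPM and the 6 lymphocyte genes to 0 to 0.298 CPM over all libraries, and none had enough reads to be tested. Choroid plexus genes were higher in 5 of 6 cases, with Ttr, which encodes transthyretin, at 6.89, Otx2 at 5.67 and Folr1 at 2.95. In a fit chosen after seeing the data, without both libraries with the high sums, 19 members were called in place of 18. The share of all genes called in that fit is not given here. The part of choroid plexus in the members' difference was not tested.

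Macrophages of the meninges and perivascular space, the brain's borders, share many genes with microglia. Of 8 border macrophage genes tested, 0 were higher and 1 lower in hippocampus, with a median of -0.25. Among all genes, 25.3% were called higher and 25.6% lower. Mrc1, the mannose receptor CD206, was 8.82 ± 2.53 CPM in cortex and 5.72 ± 1.03 CPM in hippocampus (SD, n = 10; -0.61, edgeR adjusted p = 0.00104). F13a1 (0.89) and Pf4 (-0.47) did not pass. The summed level of the 10 genes of that list ranged from 19.8 to 63.0 CPM in cortex and from 19.0 to 40.7 CPM in hippocampus, against 321 to 441 CPM and 381 to 537 CPM for the members. The members' sum runs over 31 genes, and Lgmn alone made up 20.9% to 29.2% of it. Sums of such unlike lists do not compare amounts of cells.

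Other genes listed as microglial moved in both directions. Of 19 tested, 7 were higher in hippocampus and 3 lower (median 0.26). The share called higher was 36.8%, against 25.3% of all genes, of which 25.6% were called lower. In bulk tissue, which cells gave the reads of these genes was not tested. Among the largest differences were those of Cebpa, a transcription factor of the myeloid lineage (1.99 ± 0.18, adjusted p = 1.27e-08, from a mean of 1.88 to 7.23 CPM), and P2ry6, the UDP receptor of phagocytosis (0.85 ± 0.15, adjusted p = 7.13e-05). The genes called lower included Tgfbr1 (-0.50 ± 0.14, adjusted p = 0.00777, from a mean of 50.6 to 35.9 CPM) and Inpp5d (-0.34 ± 0.09, adjusted p = 0.00261). Genes that rise in the phagocytic microglia of early white matter were higher in 6 of 10 cases (60%, against 25.3% of all genes). Several of them are expressed by neurons or other glia as well. The largest differences were those of Lpl, lipoprotein lipase, at 1.47, Lgals3, the lectin galectin-3, at 1.45, and Igf1, a growth factor, at 0.79. The 1 called lower was Fabp5 (-0.21). Spp1 (-0.40), Gpnmb (0.41) and Clec7a (0.59) did not pass.

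The remaining complement genes, many of them made by astrocytes or neurons, were split. Of 19 tested out of 32, 5 were higher in hippocampus and 7 lower (median -0.26). The share called higher, 26.3%, lay near that of all genes (25.3%), of which 25.6% were called lower. Serping1, the inhibitor of the C1 proteases, rose most (1.32 ± 0.27, adjusted p = 0.000540, from a mean of 4.47 to 10.9 CPM), followed by Masp1, a protease of the lectin pathway (1.04 ± 0.09, adjusted p = 1.12e-08, from 22.7 to 46.6 CPM). Clu, or clusterin, an inhibitor of the terminal complex, rose by 0.87 and C4b, the substrate of the C1 protease, by 0.69. Csmd2 fell by 0.84 and Csmd3 by 0.66 on the log2 scale, both neuronal membrane proteins with complement control domains, and Cd46, a membrane cofactor, fell by 0.74.

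Ligands and restraints of microglia were split too, with 3 of 11 higher in hippocampus and 5 lower (median 0.06). The 27.3% called higher lay near the 25.3% of all genes, of which 25.6% were called lower. Of the ligands for CSF1R, Il34 fell by 0.65 ± 0.11 on the log2 scale (adjusted p = 3.35e-05), from a mean of 26.1 to 16.8 CPM, while Csf1 differed by 0.20 (adjusted p = 0.129). Mfge8, which bridges dying cells to phagocytes, rose by 0.73 and Apoe, a lipid carrier bound by TREM2, by 0.66. Of the other bridging ligands in the list, Pros1 rose by 0.34 (edgeR adjusted p = 0.00463). Gas6 fell by 0.21 (adjusted p = 0.000104) and was higher in hippocampus in 0 of 10 mice. Cd200 and Cd47, which restrain microglia, fell by 0.45 and 0.32, and Cx3cl1, the ligand of Cx3cr1, differed by 0.06 (adjusted p = 0.579).

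**Figure D3:**
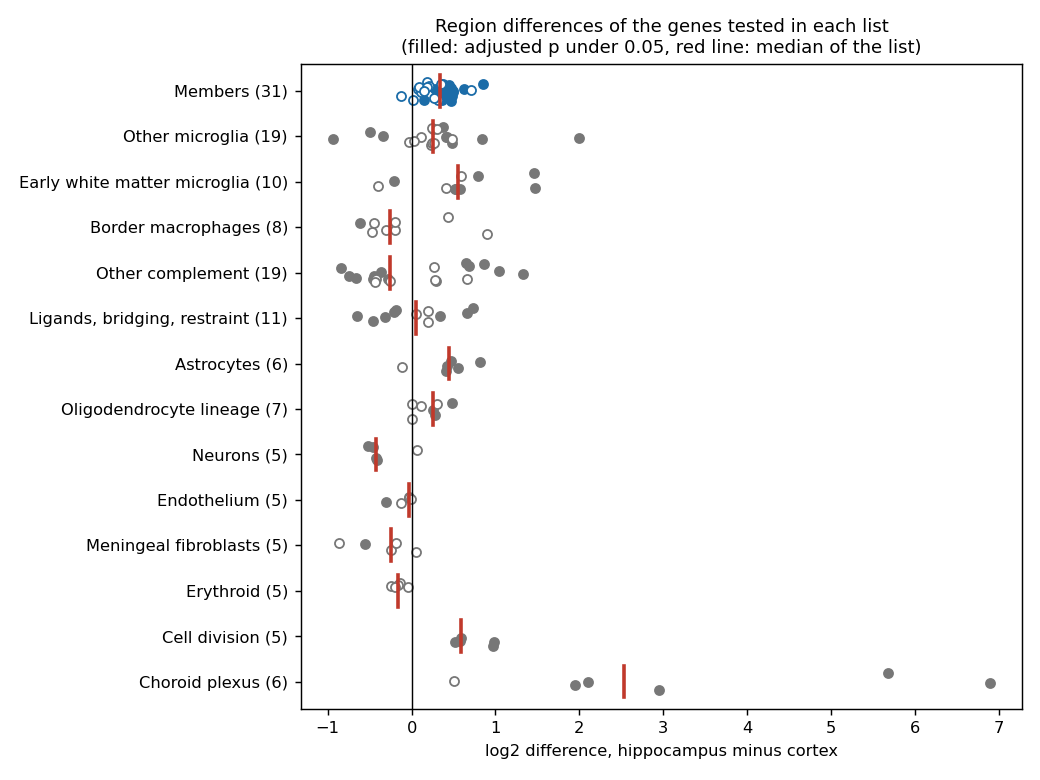
Each point is the log2 difference between hippocampus and cortex (x axis) of 1 tested gene, by gene list (number of genes in brackets), with filled points past an adjusted p of 0.05 and a red line at the list's median. The members' median is 0.34, that of astrocyte genes 0.44, that of neuron genes -0.42 and that of border macrophage genes -0.25.

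The effect of extra Ube3a was compared in each tissue, with 5 mice per genotype. No microglia or complement gene passed the test in cortex: 0 of 31 were called by edgeR, DESeq2 or limma voom, and 0 had an unadjusted p under 0.05. Over all genes, 0.00669% were called, which was Ube3a alone, and 4.44% had an unadjusted p under 0.05. The log2 difference between Ube3aOE and WT was above 0 for 23 of 31 members, with a median of 0.06 (51.4% of all genes, median 0.00). This count fell to 16 without WT mouse 2 or without Ube3aOE mouse 10.

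The smallest p values in cortex were those of Sall1, Aif1 and Ly86. Sall1 was 15.6, 17.6, 19.0, 16.5 and 17.9 CPM in WT mice 1 to 5 and 19.3, 16.9, 21.6, 17.6 and 18.2 CPM in Ube3aOE mice 6 to 10, groups that overlap (0.11 ± 0.09, edgeR adjusted p = 0.960). Aif1 differed by 0.23 ± 0.19 and Ly86 by 0.19 ± 0.16, with the same adjusted p. The 95% interval lay within -0.5 to 0.5 for 22 of the 31 members, against 73.8% of all genes, and for the other 9 the interval reached a change of 0.5 or more in at least 1 direction.

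In hippocampus 0 of 31 members were called by edgeR, DESeq2 or limma voom, and the differences lay above 0 for 11 of 31 (median -0.06), against 50.7% of all genes. Over all genes, 0.00657% were called, again Ube3a alone, and 7.21% had an unadjusted p under 0.05, 3.50% with a lower level in Ube3aOE mice. Among the members 4 had an unadjusted p under 0.05 and all 4 were lower in Ube3aOE mice: Ly86, Tyrobp, Aif1 and Trem2, each with an adjusted p of 0.668.

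Ly86 was 9.90, 7.63, 11.2, 9.20 and 8.31 CPM in WT mice 1 to 5 and 7.92, 8.09, 5.38, 6.30 and 6.71 CPM in Ube3aOE mice 6 to 10 (-0.43 ± 0.14, edgeR adjusted p = 0.668). The groups overlapped through WT mouse 2, whose value lay below that of Ube3aOE mice 6 and 7. Trem2 was 7.68, 4.80, 9.31, 8.51 and 8.49 CPM in WT and 5.66, 6.16, 5.20, 6.62 and 5.93 CPM in Ube3aOE mice (log2 difference -0.39 ± 0.16). The value of WT mouse 2 was below all Ube3aOE values and the other WT values above all of them. Tyrobp was 9.03, 10.1, 12.6, 12.6 and 11.8 CPM in WT and 9.12, 10.3, 8.75, 9.33 and 8.99 CPM in Ube3aOE mice (log2 difference -0.28 ± 0.11). Aif1 was 2.93, 2.71, 4.01, 4.94 and 4.68 CPM in WT and 2.44, 2.60, 2.54, 3.22 and 3.06 CPM in Ube3aOE mice (log2 difference -0.48 ± 0.19). For Tyrobp and Aif1 the values of WT mice 1 and 2 lay among those of the Ube3aOE mice and those of WT mice 3, 4 and 5 above them. The number of members with an unadjusted p under 0.05 was 9 without WT mouse 2, and it was 1 without WT mouse 3 or 5, with 0 called in each case. The share of all genes under that p in these fits is not given here. The change in number is therefore not read as a result about the members. The 95% interval lay within -0.5 to 0.5 for 17 of 31 members, against 69.9% of all genes.

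**Figure D4:**
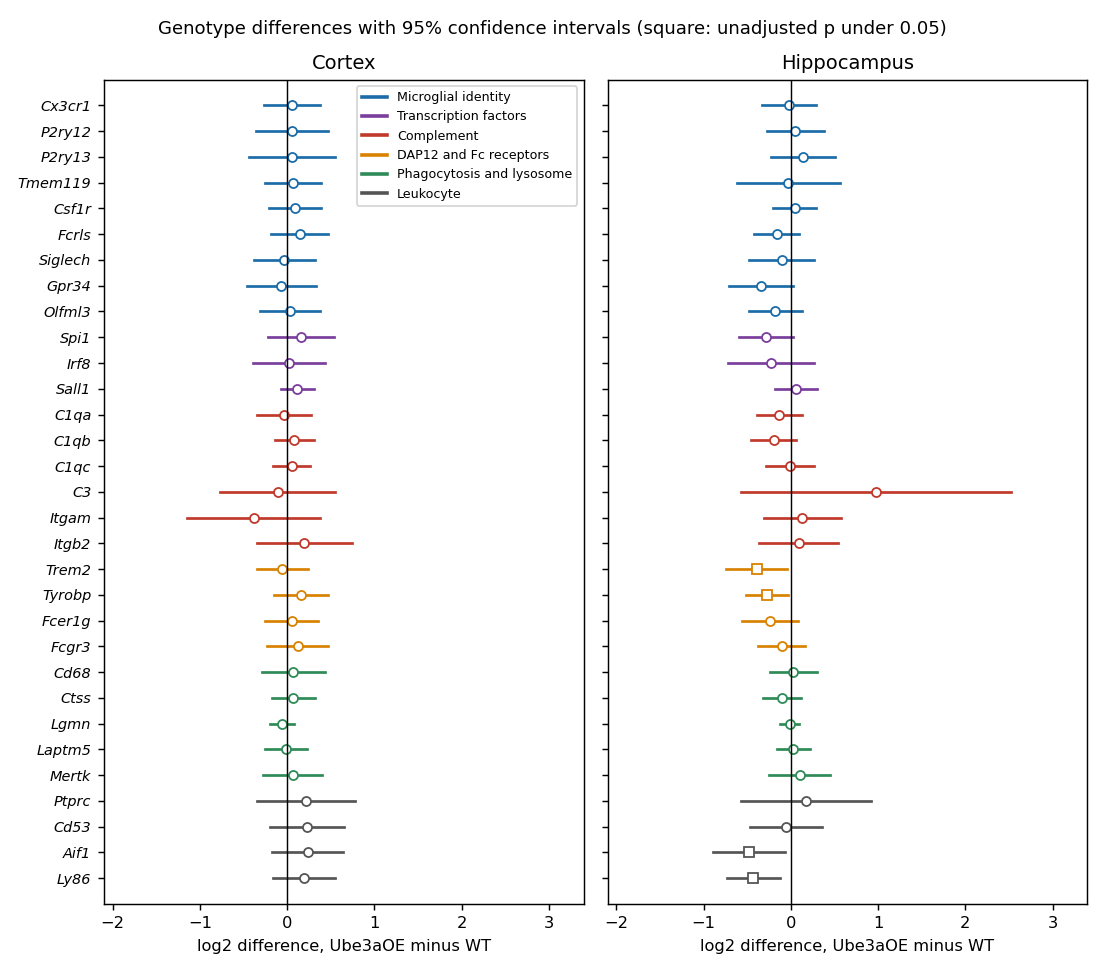
The x axes give the log2 difference between Ube3aOE and WT in cortex (left) and hippocampus (right) with the 95% confidence interval for each of the 31 members, coloured by role. Squares mark the 4 members with an unadjusted p under 0.05, all in hippocampus, and 0 members passed the adjusted threshold in either tissue.

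The same members were tested for a genotype effect that differs between the tissues. None passed: 0 of 31 were called by edgeR, by DESeq2 or with the mouse as a block, as for all 15661 genes (0.00%), and 3 members had an unadjusted p under 0.05, against 3.77% of all genes. These were Ly86 (-0.62 ± 0.22), Aif1 (-0.71 ± 0.27) and Tyrobp (-0.43 ± 0.18), each with an edgeR adjusted p of 0.997. Within WT mice alone, hippocampus was above cortex for 31 of 31 members (median 0.42) and 15 were called. Within Ube3aOE mice it was above cortex for 24 of 31 (median 0.29) and 10 were called. Given the interaction test, these counts do not show that the genotypes differ. The shares of all genes called or above 0 within each genotype are not given here, so these counts have no background beside them.

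Mice differed in the members as a whole. In hippocampus, WT mouse 2 had a level below the tissue's mean for 31 of 31 members (median deviation -0.41 on the log2 scale) and held the lowest of the 10 values for 20. In cortex it was below the mean for 30 of 31 (median -0.30), and Ube3aOE mouse 7 for 31 of 31 (median -0.26). These mice held the lowest of the 10 cortex values for 12 and 13 members. In hippocampus, mouse 7 was below the mean for 25 of 31 (median -0.13). Summed over the members, mouse 2 gave 329 CPM in cortex and 381 CPM in hippocampus and mouse 7 gave 321 and 444 CPM, while the other mice ranged from 374 to 441 CPM in cortex and from 457 to 537 CPM in hippocampus. The astrocyte genes were also lowest in both mice in cortex, with sums of 1189 and 1331 CPM against 1450 to 1971 CPM in the others. In the cortex of mouse 2 the endothelial genes summed to 80.5 CPM, against 122 to 156 CPM in the other mice. In its hippocampus the neuron genes summed to 7271 CPM, against 5791 to 6449 CPM in the others, while its astrocyte genes, at 2016 CPM, lay within the range of 1900 to 2493 CPM of the others. The part of these levels in the members' low values was not tested. Whether the low share of reads on genes in the cortex library of mouse 2 bears on its levels was not tested.

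**Figure D5:**
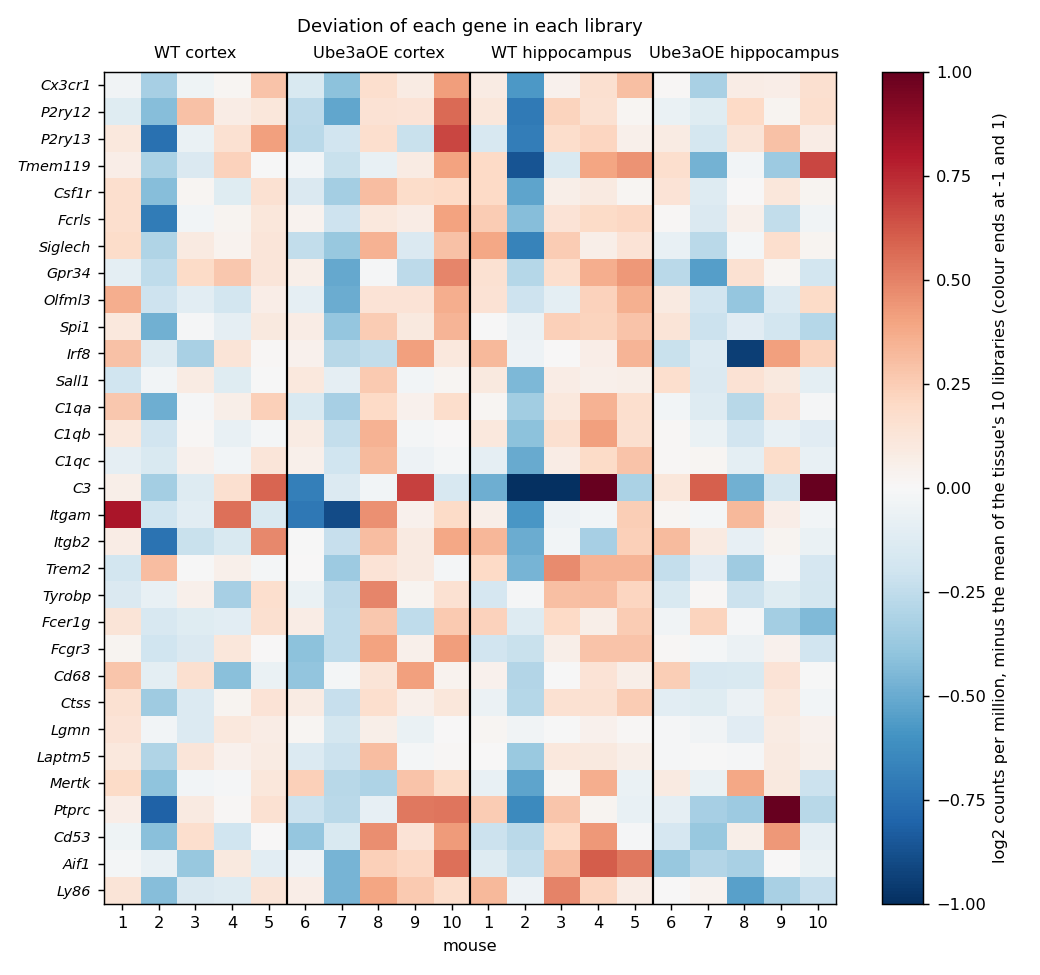
Each cell gives the level on the log2 CPM scale for 1 member (row) in 1 library (column, by mouse number) minus the mean of the 10 libraries of that tissue, from blue (lower) to red (higher). The columns of WT mouse 2 are blue for 30 of 31 members in cortex and 31 of 31 in hippocampus, and that of Ube3aOE mouse 7 for 31 of 31 in cortex.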

How the data were processed

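The authors deposited raw counts per gene for each of the 20 libraries, from a stranded mRNA kit. The submitters' processing notes name HISAT2 2.1.0, HTSeq 0.11.2 and the build GRCm38 (mm10), while the annotation release and the strand setting are not given in the sources used here. Reads aligned to more than 1 place (10.3% to 13.7%) or over more than 1 gene (0.756% to 0.879%) were not counted on a gene, which lowers genes with near-identical or overlapping neighbours, and the 5 lines of uncounted reads were left out of library sizes. Gene positions, transcript lengths and GC contents came from GENCODE M21 (98.9% of identifiers matched) and promoter windows from RefSeq.

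The main test was the robust quasi-likelihood F test of edgeR 4.0.16 under R 4.3.3, after TMM scaling and filterByExpr. DESeq2 1.42.0 and limma 3.58.1 served as alternatives, and Python 3.11.15 for tables and figures. TMM factors ranged from 0.943 to 1.05. P values were adjusted by Benjamini-Hochberg over all genes tested, at 0.05, and called means past that threshold. Errors after ± on log2 differences are standard errors. Region and interaction were fitted over all 20 libraries, and genotype within the 10 libraries of a tissue, without covariates. Log2 CPM used a prior count of 2. The mouse number in the labels pairs the hippocampus and cortex of 1 animal. As a check, deviations from the group means were correlated over genes: the median r was 0.215 within a mouse (-0.0367 to 0.248, over 0.1 in 9 of 10 mice) and -0.0426 between mice. The exception was mouse 4 (-0.0367), whose hippocampus had an r of 0.100 with the cortex of mouse 3. Deviations from a group mean cancel within the group, so the r between mice is not independent of that within. Each genotype in a tissue is 5 animals, and the P values of the genotype tests measure the spread between them. The main region and interaction fits took the 20 libraries as separate, although each mouse gave 2 of them. Their P values therefore do not measure the spread between animals, and the fit with the mouse as a block takes the pairing into account.

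The members and the other gene lists were chosen with earlier results of these data known. All 31 members are accounted for. Named in the genotype comparisons were members with an unadjusted p under 0.05 and the 3 with the smallest p, and from each other list the 3 genes with the largest regional difference, with further genes chosen after their values were seen. The result of 1 gene that this rule names is not reported here. Alternatives were DESeq2, its size factors, no filter on low counts, limma voom, labelled sex as a covariate, all 20 libraries in the genotype fit, offsets that remove the trend on length and GC (spline of 5 df), the mouse as a block, each genotype alone and each mouse left out. The fits were also run on simulated counts, drawn for each library separately and without a mouse effect. That run cannot check the pairing of the tissues, and its outcome is not given here.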

Additional observations from a re-analysis of the deposited data

Results flagged for a closer look

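In each group of 5 mice, the highest and the lowest value of each of the 31 members was compared with the others by Dixon's ratio at its 95% critical value. Of 124 groups, 11 held a value that stood apart, where chance gives about 6.2. WT mouse 2 gave 7 of the 11, all as the lowest value. In cortex these were Fcrls (11.0 CPM, others 17.6 to 20.2), Laptm5 (18.0 CPM, others 23.0 to 24.2) and Ptprc (0.673 CPM, 9 counts, others 1.28 to 1.43). In hippocampus they were P2ry12 (8.43 CPM, others 14.0 to 16.2), Fcrls (16.3 CPM, others 24.1 to 26.3), Sall1 (18.4 CPM, others 26.0 to 27.0) and Laptm5 (23.0 CPM, others 29.8 to 32.1).

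The other 4 were the highest of their group. C3 was 2.59 CPM (45 counts) in the hippocampus of WT mouse 4, against 0.308 to 0.808 CPM in the other WT mice, and 5.15 CPM (86 counts) in that of Ube3aOE mouse 10, against 0.709 to 1.63 CPM. Ptprc was 3.41 CPM (53 counts) in the hippocampus of Ube3aOE mouse 9, against 1.06 to 1.31 CPM, and that library was 1 of the 2 with high choroid plexus genes. Itgam was 1.71 CPM (29 counts) in the hippocampus of Ube3aOE mouse 8, against 1.32 to 1.41 CPM.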

How the results depend on the processing

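The number of members called between the tissues (18) was 18 with DESeq2, with its size factors and without a filter, 21 with the mouse as a replicate block, 20 with the block and the length and GC trend removed, 15 in WT alone and 10 in Ube3aOE alone, and ranged from 13 (without mouse 4) to 21 (without mouse 2) with 1 mouse left out. The alternatives chosen after seeing the data gave 18 (without the cortex library of WT mouse 2) and 19 (without the hippocampus libraries of mice 7 and 9). Of all genes, 25.3% were called higher in the main fit and 27.4% with the block. For the other fits that share is not given here, so their counts have no background beside them. With block and trend Tyrobp was also called (0.28, adjusted p = 0.00868). Against the main fit, WT alone gained 3 calls and lost 6, and Ube3aOE alone gained 0 and lost 8. Over all alternatives the adjusted p of Spi1 fell to 0.0447 and that of Ly86 to 0.0152. That of Irf8 rose to 0.292 and that of Trem2 to 0.115. With 1 mouse left out, Spi1 and Ly86 passed in 0 of 10 fits, Irf8 and Trem2 in 10 of 10. In the genotype and interaction comparisons 0 members were called under every alternative, also with 1 mouse left out, and the replicate block changed no call there. Of the other values, 6 turned sign in Ube3aOE mice alone: Gpr34 (-0.058), Spi1 (-0.025), Tyrobp (-0.00065), Fcgr3 (-0.019), Aif1 (-0.32) and Ly86 (-0.15). Fcer1g turned in WT alone (0.030), Ptprc without the hippocampus libraries of mice 7 and 9 (-0.036), and Aif1, which was near 0, when 1 of mice 3, 4, 5 or 7 was left out (range over all 10 such fits -0.026 to 0.084). None of these was called in either fit. Fewer mice enter the fits of 1 genotype, and the cause of the other changes was not tested. The members' mean counts per library were as low as 17.4 (Itgam).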
